A study of Mus musculus with 31 samples.

Results

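The core loop of the circadian clock was followed here through 8 genes: the repressors Per1, Per2, Per3, Cry1 and Cry2, and the activators Clock, Arntl (also called Bmal1) and Npas2. They were chosen by gene name from the array annotation, and all 8 were among the 25204 genes or unnamed transcripts tested. RNA was taken from whole brains of 31 C57BL/6 mice, all female and 6 weeks old, and each mouse had 1 single-colour array. All mice were anaesthetised with xylazine and ketamine and received 200 µl through the tail vein. In 17 mice the injection held oleic acid (1.2 µl per g of mouse), which injures the lung acutely, and in the other 14 it was physiological serum. Brains were taken 1, 1.5, 3, 4, 18 or 24 h after the injection. The oleic acid and serum groups held 3 and 3 mice at 1 h and at 1.5 h, 3 and 2 mice at 3, 4 and 24 h, and 2 and 2 mice at 18 h. The injury is to the lung and the brain was measured as a distant organ. The labels used here give no time of day, so hours after injection and time of day cannot be told apart. No uninjected mice are among the groups, so what the injection and the anaesthetic shared by all mice did was not measured.

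In the clock, a dimer of CLOCK or its relative NPAS2 with ARNTL binds E-box sequences and activates the Per and Cry genes. The PER and CRY proteins accumulate, enter the nucleus and repress that dimer, which closes a loop of about a day. Nuclear receptors of the ROR and REV-ERB families drive and repress Arntl, and factors such as DBP act on D-boxes. Per1 and Per2 are also induced directly by cAMP, calcium and glucocorticoid signals. Nearly all brain regions hold such clocks, and the suprachiasmatic nucleus of the hypothalamus sets their phase.

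Of the 8 genes, 3 passed in at least 1 of the time contrasts over both treatments, and none passed between treatments. Per3 and Per1 were higher, and Clock lower, at 3 and 4 h than at 1 and 1.5 h, where 9.49% of all genes passed. Clock and Per1 were lower at 24 h than at 1 and 1.5 h, where 10.9% of all genes passed. These comparisons run across slides: with slide as a fixed block none of the 5 calls held, and the difference of Clock at 24 h turned its direction. In that fit 3 of all genes passed for 3 and 4 h and 28 for 24 h, against 2393 and 2736 without the block. None of the 8 genes differed between oleic acid and serum mice at any time after adjustment. Of all 25204 genes, 1 passed between treatments at 4 h and 0 at each other time. Per1 and Per2 alone of the 8 had an unadjusted p under 0.05 between treatments, above serum at 1 h and below serum at 18 h. At that threshold 4.84% of all genes passed at 1 h and 7.28% at 18 h. Neither gene passed the adjusted test, and the treatments of 18 h lay on different slides.

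Promoter windows are shown for Per1, Per3 and Arntl, which hold letters of known clock motifs. The Cry1 window also held a motif but is not shown. Clock, which passed between times as Per1 and Per3 did, held none in its windows. The windows are from RefSeq on build GRCm38.p6 and run from 250 bases before to 50 bases after an annotated start, and 7 of the 8 genes matched 11 windows. Both strands were searched for the E-box CACGTG, the D-box TTATGTAA, the cAMP response element TGACGTCA and the ROR and REV-ERB element TAGGTCA. Of all 32851 mouse windows, 7.15% held the E-box, 0.938% the D-box, 1.79% the cAMP response element and 2.61% the ROR and REV-ERB element. The 3 windows below are written 5′ to 3′ on the gene's strand, with every match in capitals. They are Per1 at chr11:69098699-69098998 (plus strand), Per3 at chr4:151044616-151044915 (minus strand) and the second window of Arntl at chr7:113207261-113207560 (plus strand).
Per1: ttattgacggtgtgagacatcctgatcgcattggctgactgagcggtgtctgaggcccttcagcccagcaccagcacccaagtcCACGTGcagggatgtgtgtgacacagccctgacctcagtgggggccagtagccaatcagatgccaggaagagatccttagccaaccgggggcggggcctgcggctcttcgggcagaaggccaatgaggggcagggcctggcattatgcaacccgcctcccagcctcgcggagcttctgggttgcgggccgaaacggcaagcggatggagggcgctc
Per3: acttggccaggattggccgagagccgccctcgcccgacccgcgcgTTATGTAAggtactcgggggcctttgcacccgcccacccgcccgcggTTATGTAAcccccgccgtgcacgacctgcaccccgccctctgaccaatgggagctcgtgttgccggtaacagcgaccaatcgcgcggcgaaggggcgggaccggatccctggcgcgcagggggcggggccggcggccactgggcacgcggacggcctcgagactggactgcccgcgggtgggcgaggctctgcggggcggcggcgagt
Arntl: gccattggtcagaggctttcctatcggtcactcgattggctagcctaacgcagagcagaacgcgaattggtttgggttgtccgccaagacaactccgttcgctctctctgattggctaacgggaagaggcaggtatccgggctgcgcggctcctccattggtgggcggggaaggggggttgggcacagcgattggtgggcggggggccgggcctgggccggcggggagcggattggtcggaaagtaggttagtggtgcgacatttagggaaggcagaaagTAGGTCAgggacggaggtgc
The Per1 window held 1 E-box, from -166 to -161 relative to the start. The Per3 window held 2 D-boxes, from -205 to -198 and from -158 to -151. The Arntl window held the ROR and REV-ERB element from 31 to 37, just inside the transcript. Cry1 held an E-box from -60 to -55. The other Per1 and Arntl windows, the 3 Clock windows and those of Cry2 and Npas2 held none of the 4 letter strings. A match describes the sequence and was not tested as a binding site.

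Each value below is a level: the log2 of a probe's processed intensity minus the log2 of the 75th percentile of that array, so 0 is the array's 75th percentile. Levels compare mice for 1 probe and not 1 gene with another. The share of spots well above background was 54.3% to 76.3% per array (median 62.2%). The third oleic acid mouse at 1 h had the lowest share and the lowest 75th percentile of intensity, 306. All 7 neuron markers and all 5 markers of each of astrocytes, oligodendrocytes, microglia and endothelium were well above background on all 31 arrays, as the label brain implies. In whole brain, fewer cells of a type and less RNA per cell cannot be told apart. The arrays lay on 5 slides, and times were spread unevenly over them. Both treatments at 1 h lay on slide 1 and both at 4 h on slide 4, while the oleic acid and serum mice of 18 h lay on different slides, where the slide and the treatment cannot be told apart. Tests are limma's moderated tests with Benjamini-Hochberg adjustment over all 25204 genes, and a gene passed at an adjusted p under 0.05. They measure the spread between mice of a group, since each array was 1 mouse.

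**Figure D1:**
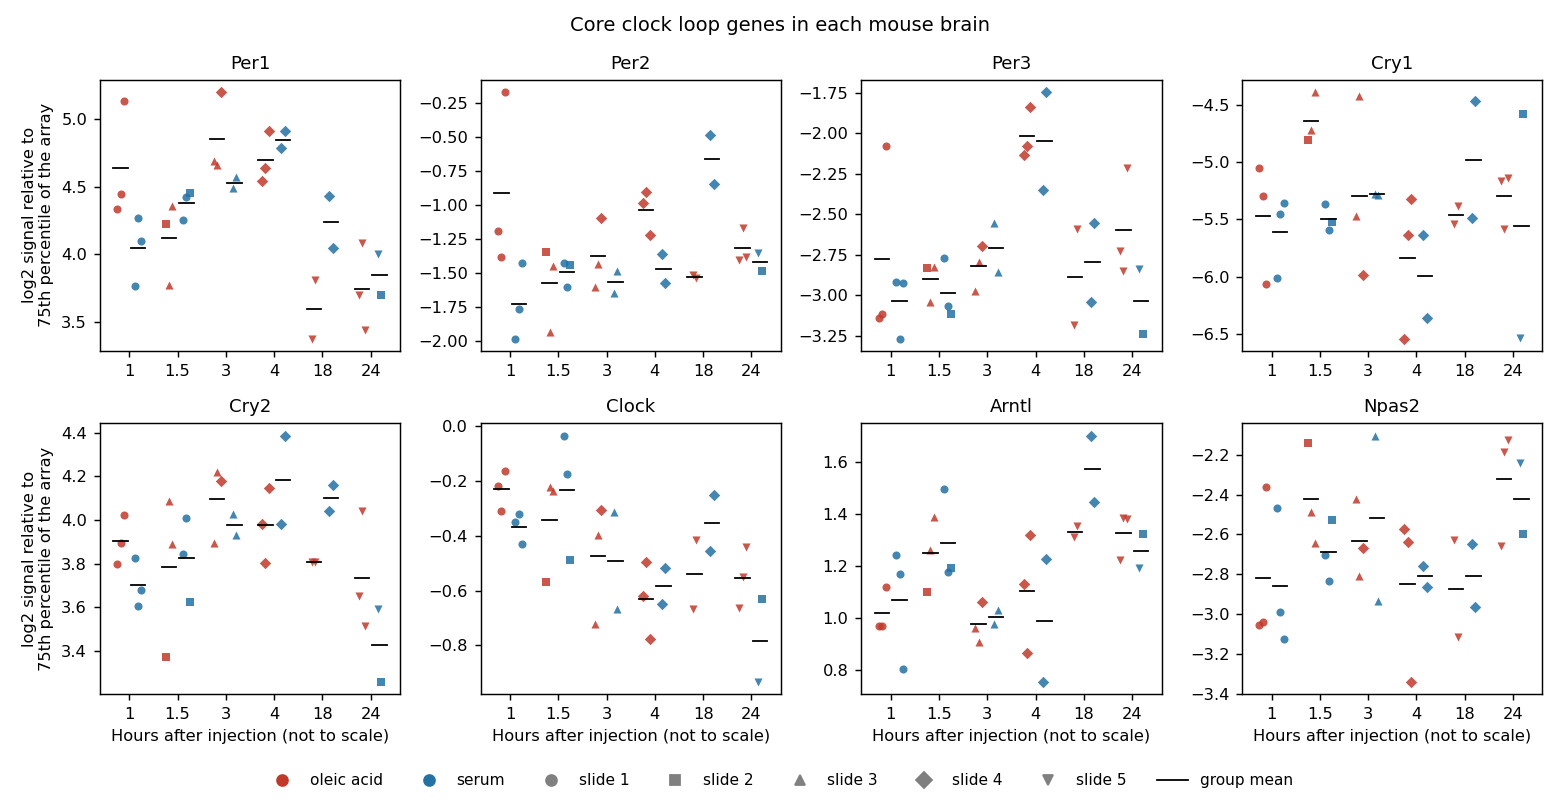
Level of each of the 8 genes (log2 intensity relative to the array's 75th percentile, vertical axis) in every mouse by hours after injection (horizontal axis, not to scale), oleic acid left of serum at each time, with bars for group means, colours for treatments and symbol shapes for the 5 slides. The group means of Per1 and Per3 are highest at 3 or 4 h in both treatments, Per2 is highest in serum mice at 18 h, and Cry1 lies near background on most arrays.

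Per1 encodes a PER repressor that responds quickly to incoming signals. In oleic acid mice its levels were 4.34, 4.44 and 5.13 at 1 h, 4.22, 3.77 and 4.36 at 1.5 h, 4.69, 4.66 and 5.20 at 3 h, 4.54, 4.64 and 4.91 at 4 h, 3.37 and 3.81 at 18 h, and 3.70, 4.08 and 3.44 at 24 h. In serum mice they were 3.77, 4.26 and 4.10 at 1 h, 4.25, 4.42 and 4.46 at 1.5 h, 4.49 and 4.57 at 3 h, 4.79 and 4.91 at 4 h, 4.43 and 4.05 at 18 h, and 4.00 and 3.70 at 24 h. Every mouse of 3 and 4 h lay above every mouse of 24 h, in both treatments. The mice of 24 h shared no slide with those of 3 and 4 h, and the share of all genes separated in this way was not counted. Per1 was 1.35-fold higher at 3 and 4 h than at 1 and 1.5 h (log2 difference 0.44 ± 0.11, SE, 95% interval 0.20 to 0.67, adjusted p = 0.0199). The same difference was 0.40 within oleic acid mice and 0.48 within serum mice. At 24 h Per1 was lower than at 1 and 1.5 h (-0.50 ± 0.14, interval -0.80 to -0.20, adjusted p = 0.0285), with -0.64 in oleic acid and -0.36 in serum mice. In the fit by gene, Per1 alone of the 8 passed the test of any difference between times within oleic acid mice (adjusted p = 0.00431). Of all genes 7.06% passed that test, and Per1 did not pass it with slide as a fixed block (adjusted p = 0.811). With the block, 35 of all genes passed it. In the order of its 12 group means, 10 of 11 neighbouring pairs overlapped, and only serum at 3 h stood clear of serum at 1.5 h.

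The Per1 values at 1 h did not overlap between treatments, all 3 oleic acid mice being above all 3 serum mice. Of all genes 4.11% were separated in that way. The log2 difference of 0.59 ± 0.22 (interval 0.14 to 1.04, unadjusted p = 0.012) had an adjusted p of 0.924. Without the third oleic acid mouse it was 0.35. At 3 h the oleic acid mice were again all above the serum mice, with a difference of 0.32 ± 0.24. Of all genes 10.1% were separated upwards at 3 h. At 18 h both oleic acid mice lay below both serum mice, with a difference of -0.64 ± 0.26 (interval -1.19 to -0.10, unadjusted p = 0.0235, adjusted p = 0.671). Downward separation at 18 h was seen in 29.5% of all genes. The treatments of 18 h lay on different slides, and slide as a fixed block gave -0.58 ± 0.65 (adjusted p = 0.882). Averaged over the 6 times the difference was -0.04 ± 0.10 (interval -0.24 to 0.16). The Per1 probe lies at chr11:68923364-68923423 on mm9, the build of the array annotation. A second Per1 probe, at chr11:68919895-68919954 and annotated to a cDNA clone, was well above background on 10 of 31 arrays and was not tested.

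Per2 encodes the PER protein whose loss shortens and then abolishes rhythms in mice. Its levels in oleic acid mice were -1.19, -1.38 and -0.17 at 1 h, -1.34, -1.93 and -1.44 at 1.5 h, -1.60, -1.43 and -1.10 at 3 h, -0.98, -0.90 and -1.22 at 4 h, -1.51 and -1.54 at 18 h, and -1.40, -1.17 and -1.38 at 24 h. The serum mice read -1.98, -1.76 and -1.43 at 1 h, -1.42, -1.60 and -1.44 at 1.5 h, -1.64 and -1.49 at 3 h, -1.36 and -1.57 at 4 h, -0.48 and -0.84 at 18 h, and -1.35 and -1.49 at 24 h. The serum mice of 18 h stood above all other serum mice, while the oleic acid mice of 18 h sat among the low values. Serum mice were 1.93-fold higher at 18 h than at 1 and 1.5 h (log2 difference 0.95 ± 0.23, adjusted p = 0.0226), a contrast in which 4.27% of all genes passed. Without the first serum mouse of 18 h that call was lost (adjusted p = 0.41), as it was without the second (adjusted p = 0.0752). The 18 h mice shared no slide with those of 1 and 1.5 h. The fit with slide as a fixed block gave 0.81 with an adjusted p of 0.982, and 3 of all genes passed it. In oleic acid mice the difference was -0.28 ± 0.23 (adjusted p = 0.826). Over both treatments together it was 0.33 ± 0.16 and did not pass (adjusted p = 0.226).

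Between treatments at 1 h, all 3 oleic acid mice had more Per2 than all 3 serum mice, a separation seen in 4.11% of all genes. The log2 difference was 0.81 ± 0.23 (interval 0.34 to 1.28, unadjusted p = 0.00168, adjusted p = 0.58), and 0.44 without the third oleic acid mouse, whose level of -0.17 was the highest of all 31. At 4 h the oleic acid mice were also all above the serum mice, on 1 slide, by 0.43 ± 0.25 (interval -0.10 to 0.96). Of all genes 9.47% were separated upwards at 4 h. At 18 h both oleic acid mice were below both serum mice (log2 difference -0.87 ± 0.28, interval -1.44 to -0.29, unadjusted p = 0.00505, adjusted p = 0.671). Downward separation at 18 h was seen in 29.5% of all genes. Leaving out any 1 of the 31 mice gave -1.05 to -0.69 at 18 h. The treatments of 18 h lay on different slides. With slide as a fixed block the 18 h difference was -0.92 ± 0.70 (adjusted p = 0.86). The mean over the 6 times was 0.10 ± 0.10 (interval -0.11 to 0.31). The Per2 probe lies at chr1:93313046-93313105 on mm9.

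Per3 encodes the PER protein least needed for behavioural rhythms in mice. In oleic acid mice its levels were -3.14, -3.12 and -2.08 at 1 h, -2.83, -3.04 and -2.82 at 1.5 h, -2.97, -2.80 and -2.69 at 3 h, -2.13, -2.08 and -1.83 at 4 h, -3.18 and -2.59 at 18 h, and -2.72, -2.85 and -2.21 at 24 h. In serum mice they were -2.92, -3.27 and -2.92 at 1 h, -2.77, -3.06 and -3.12 at 1.5 h, -2.55 and -2.86 at 3 h, -2.35 and -1.74 at 4 h, -3.04 and -2.55 at 18 h, and -2.83 and -3.24 at 24 h. The groups of 4 h had the highest means in both treatments, and the mice of 3 h lay near those of 1 and 1.5 h. Per3 was 1.44-fold higher at 3 and 4 h than at 1 and 1.5 h (0.53 ± 0.13, interval 0.26 to 0.80, adjusted p = 0.014), with 0.42 in oleic acid and 0.63 in serum mice. On slide 4, the oleic acid mice of 4 h were all above the 1 oleic acid mouse of 3 h on that slide, at -2.69. Oleic acid and serum mice overlapped at every time, and the largest difference was 0.44 ± 0.27 at 24 h. The Per3 probe lies at chr4:150379256-150379315 on mm9.

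Cry1, which encodes the stronger of the CRY repressors, was near the limit of detection in whole brain. Its probe, at chr10:84594731-84594790 on mm9, was well above background on 10 of 31 arrays, 7 of oleic acid and 3 of serum mice. It entered the test only because all 3 oleic acid mice of 1.5 h were above background, at -4.80, -4.72 and -4.39. The serum mice of 1.5 h read -5.37, -5.59 and -5.53, none of them well above background. For each serum array of 1.5 h, the higher of its Cry1 reading and its lowest signal of any probe well above background was taken. Against these values Cry1 was 1.60-fold higher in oleic acid mice. That is not a lower limit, since the deposited value table gave a log2 difference of 0.24. The moderated test, run without this step, gave an adjusted p of 0.923. Since the oleic acid group of 1.5 h let the Cry1 probe in, its height there is a description. At 4 h no mouse of either treatment was above background, and no fold is given.

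Cry2 encodes the other CRY repressor and was read by 2 probes that the array annotation assigns to different transcript variants. The brighter probe, for variant 1 at chr2:92243807-92243866 on mm9, stood for the gene. The oleic acid mice read 3.80, 3.89 and 4.02 at 1 h, 3.37, 4.09 and 3.89 at 1.5 h, 3.89, 4.22 and 4.18 at 3 h, 3.98, 3.80 and 4.15 at 4 h, 3.81 and 3.81 at 18 h, and 3.65, 4.04 and 3.51 at 24 h. The serum mice read 3.83, 3.61 and 3.68 at 1 h, 3.85, 4.01 and 3.63 at 1.5 h, 4.03 and 3.93 at 3 h, 3.98 and 4.39 at 4 h, 4.04 and 4.16 at 18 h, and 3.59 and 3.26 at 24 h. In the order of the group means, 10 of 11 neighbouring pairs overlapped. Serum at 24 h was lowest and lay clear of serum at 1 h, the next in order. Groups further apart in that order did not all overlap. The difference of 3 and 4 h from 1 and 1.5 h was 0.25 ± 0.09 and missed the threshold (adjusted p = 0.0755). At 18 h both oleic acid mice lay below both serum mice, with a difference of -0.29 ± 0.21. Of all genes 29.5% were separated in that way. The 2 treatments lay on different slides there, and slide as a fixed block gave 0.11, in the other direction.

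The second Cry2 probe, for variant 2 at chr2:92251417-92251476 on mm9, was fitted on its own. The RefSeq table used here does not list that variant's accession under Cry2, so which transcript the probe reads rests on the array annotation. It read, in oleic acid mice, 1.01, 1.2 and -0.34 at 1 h, 0.80, 0.76 and 0.85 at 1.5 h, 1.49, 1.17 and 1.56 at 3 h, 0.14, 0.27 and 0.32 at 4 h, 0.28 and 0.44 at 18 h, and 0.31, 0.49 and 0.10 at 24 h. In serum mice it read 0.55, 0.39 and 0.96 at 1 h, 0.62, 0.85 and 1.08 at 1.5 h, 1.13 and 1.12 at 3 h, 0.59 and 0.48 at 4 h, -0.22 and -0.05 at 18 h, and 0.22 and 0.33 at 24 h. All 5 mice of 3 h lay above all 5 mice of 4 h, but only 1 mouse of 3 h shared a slide with those of 4 h. The share of all probes separated in this way was not counted. On slide 4 alone, the 3 oleic acid mice of 4 h read 0.14 to 0.32, against 1.56 in the 1 oleic acid mouse of 3 h. With every probe fitted on its own, this probe was lower at 18 h than at 1 and 1.5 h (-0.62 ± 0.18, interval -0.98 to -0.25, adjusted p = 0.0411 over 35499 probes, of which 6.27% passed). That call was lost without the first serum mouse of 18 h (adjusted p = 0.178) and with slide as a fixed block (adjusted p = 0.931). In the fit by gene, the brighter probe differed by 0.15 ± 0.12 there (interval -0.10 to 0.40, adjusted p = 0.489), and the difference between the probes was not tested. In the fit by probe, the variant 2 probe also passed the test of any difference between times within oleic acid mice (adjusted p = 0.0327). It did not pass that test without the first oleic acid mouse of 3 h (adjusted p = 0.0937). Within serum mice it did not pass (adjusted p = 0.0609).

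**Figure D2:**
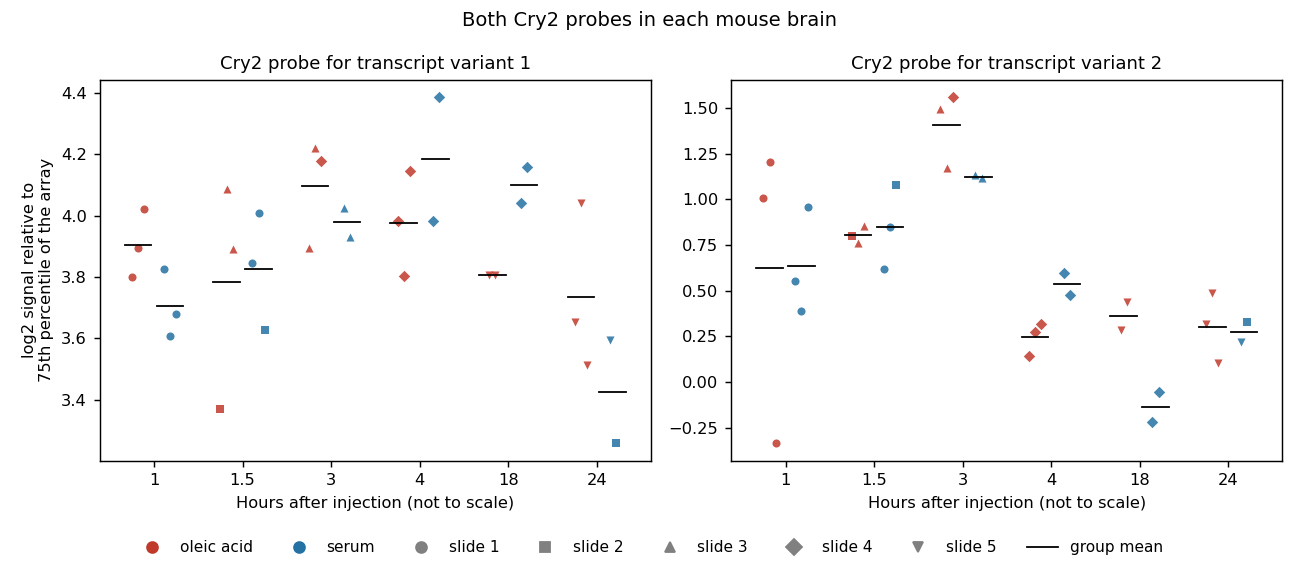
Levels of the 2 Cry2 probes (log2 intensity relative to the array's 75th percentile, vertical axis) in every mouse by hours after injection (horizontal axis, not to scale), oleic acid left of serum at each time, with bars for group means and symbol shapes for slides. The variant 2 probe is highest at 3 h, from 1.12 to 1.56 over 5 mice, and is 0.59 or lower in each mouse of 4, 18 and 24 h, whereas the variant 1 probe stays within 3.26 to 4.39.

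Clock encodes the DNA-binding activator that pairs with ARNTL. Its levels in oleic acid mice were -0.22, -0.31 and -0.16 at 1 h, -0.57, -0.22 and -0.24 at 1.5 h, -0.72, -0.40 and -0.31 at 3 h, -0.62, -0.49 and -0.78 at 4 h, -0.67 and -0.41 at 18 h, and -0.66, -0.55 and -0.44 at 24 h. Serum mice had levels of -0.35, -0.32 and -0.43 at 1 h, -0.03, -0.17 and -0.49 at 1.5 h, -0.31 and -0.67 at 3 h, -0.65 and -0.52 at 4 h, -0.45 and -0.25 at 18 h, and -0.93 and -0.63 at 24 h. The whole span was under 1 log2 unit, and all 11 neighbouring pairs in the order of the group means overlapped. Clock was lower at 3 and 4 h than at 1 and 1.5 h (-0.25 ± 0.07, interval -0.41 to -0.10, adjusted p = 0.0373), with -0.27 in oleic acid and -0.24 in serum mice. It was lower again at 24 h than at 1 and 1.5 h (-0.37 ± 0.09, interval -0.57 to -0.18, adjusted p = 0.0148), with -0.27 in oleic acid and -0.48 in serum mice. The call at 3 and 4 h was lost in 13 of the 31 fits that left out 1 mouse, with adjusted p up to 0.117. The call at 24 h was lost without the first serum mouse of 24 h (adjusted p = 0.133). With slide as a fixed block the 24 h difference was 0.17, in the other direction (adjusted p = 1). At 1 h the oleic acid mice were all above the serum mice, by 0.14 ± 0.14, as 4.11% of all genes were separated. The Clock probe lies at chr5:76641377-76641436 on mm9.

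Arntl encodes the activator without which the loop stops. In oleic acid mice its levels were 0.97, 0.97 and 1.12 at 1 h, 1.10, 1.26 and 1.39 at 1.5 h, 0.96, 0.91 and 1.06 at 3 h, 1.13, 0.87 and 1.32 at 4 h, 1.31 and 1.36 at 18 h, and 1.22, 1.38 and 1.38 at 24 h. In serum mice they were 1.24, 1.17 and 0.80 at 1 h, 1.5, 1.18 and 1.19 at 1.5 h, 0.98 and 1.03 at 3 h, 0.75 and 1.23 at 4 h, 1.70 and 1.45 at 18 h, and 1.19 and 1.32 at 24 h. Arntl was highest in serum mice at 18 h, the 1 group that stood clear of its neighbour in the order. Its difference of 18 h from 1 and 1.5 h was 0.30 ± 0.10 and did not pass (adjusted p = 0.0772). Oleic acid and serum mice differed by at most -0.24 ± 0.17, at 18 h, where both oleic acid mice were below both serum mice. Of all genes 29.5% were separated in that way. The 2 treatments lay on different slides there, and slide as a fixed block gave 0.24, in the other direction. The Arntl probe lies at chr7:120457261-120457320 on mm9.

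Npas2 encodes a relative of CLOCK that can take its place beside ARNTL. Its levels ran from -3.34 to -2.10 over the 31 mice (median -2.65), and it passed in no comparison. Its highest group mean was in oleic acid mice at 24 h, at -2.66, -2.19 and -2.13, against -2.24 and -2.60 in serum mice at 24 h. Its difference of 24 h from 18 h was 0.47 ± 0.21 (adjusted p = 0.199), and 0.55 ± 0.28 within oleic acid mice, whose 5 arrays of those times lay on 1 slide. The Npas2 probe lies at chr1:39418941-39419000 on mm9.

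Taking the treatment comparisons over all 8 genes, 0 passed at 1, 1.5, 3, 4, 18 or 24 h, or in the mean over the times. The background was as low: 0% of all genes passed at each time except 4 h, where 0.00397% did. At 1 h, 7 of 8 genes were higher in oleic acid mice, with a median log2 difference of 0.17 against 0.00 over all genes, and adjusted p-values were 0.58 to 0.988. At 18 h all 8 were lower in oleic acid mice, with a median of -0.27 against -0.04 over all genes, and adjusted p-values were 0.671 to 0.95. When slide entered the fit as a fixed block, 4 of these 8 differences turned positive: Cry1 (0.69), Cry2 (0.11), Clock (0.71) and Arntl (0.24). At the other 4 times the medians were -0.04, 0.00, -0.00 and 0.17, in time order. At an unadjusted p under 0.05, Per1 and Per2 passed at 1 h and at 18 h, 2 of 8 genes each, against 4.84% and 7.28% of all genes. No gene of the 8 did so at 1.5, 3, 4 or 24 h, where 5.28%, 4.85%, 3.04% and 6.58% of all genes did, in time order.

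By separation of the groups, Per1, Per2 and Clock had all oleic acid mice above all serum mice at 1 h, 3 of 8 genes, against 4.11% of all genes. None of the 8 was separated the other way, against 5.79% of all genes. At 18 h, Per1, Per2, Cry2 and Arntl had both oleic acid mice below both serum mice, 4 of 8, against 29.5% of all genes, and none was separated upwards, against 22.9%. Per1 at 3 h and Per2 at 4 h were also separated, both higher in oleic acid mice, against 10.1% and 9.47% of all genes. Cry1 at 1.5 h was separated too, where 4.29% of all genes were, but that group let the probe into the test and nothing is read from it. None was separated downwards at 1.5, 3 or 4 h, against 6.31%, 7.66% and 8.68%. At 24 h no gene of the 8 was separated, against 12.3% of all genes higher and 16.6% lower. The treatment effect of 18 h minus that of 1 h was -1.68 ± 0.36 for Per2 (unadjusted p = 0.000118) and -1.24 ± 0.34 for Per1 (unadjusted p = 0.00154), with an adjusted p of 0.603 for both. That contrast was chosen after the values were seen, and 0 of 25204 genes passed it. The planned test of any change of the effect over the 6 times gave unadjusted p-values of 0.00394 for Per2 and 0.0193 for Per1, both with an adjusted p of 0.837.

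**Figure D3:**
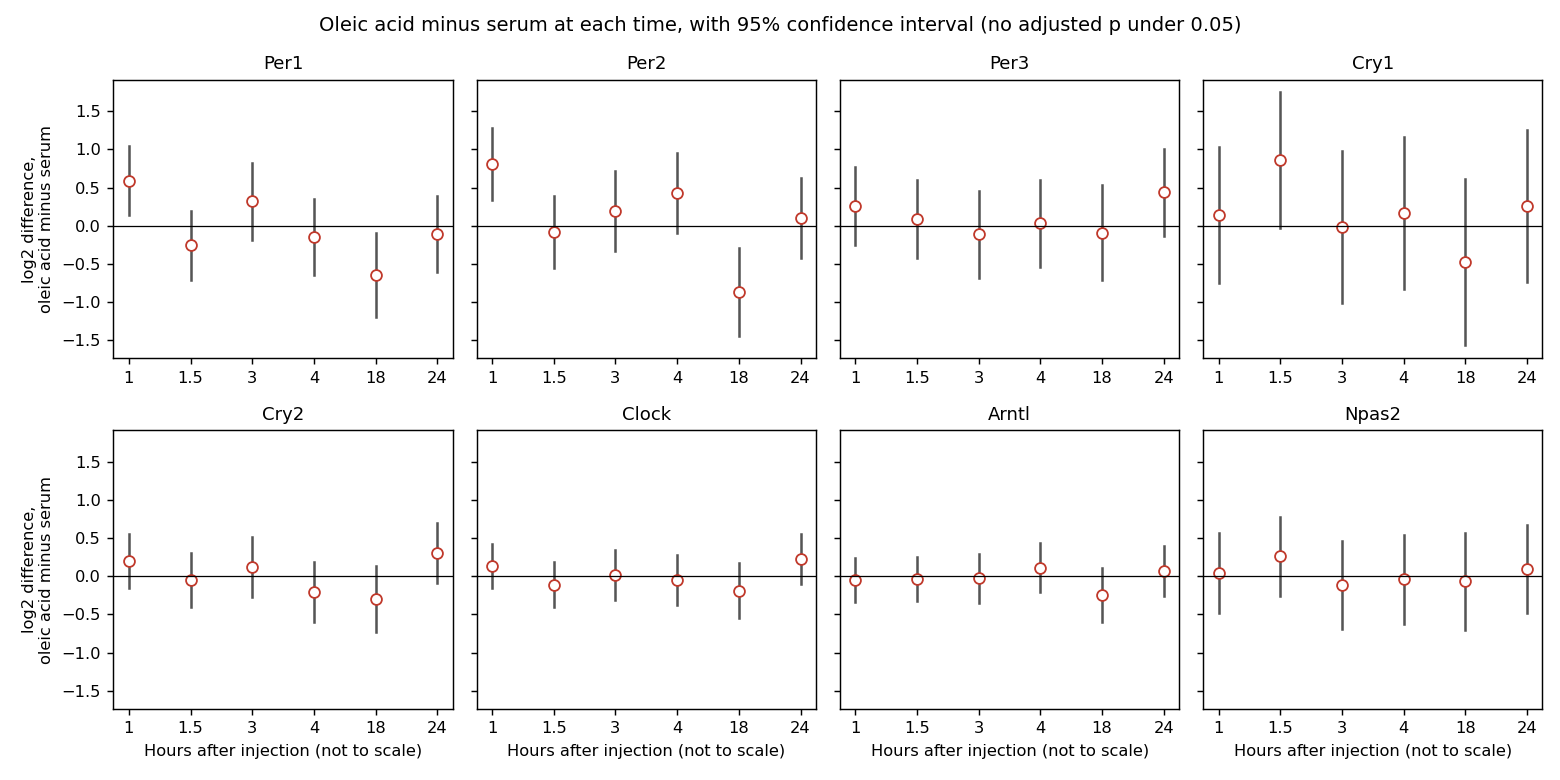
Oleic acid minus serum difference of each of the 8 genes (log2, vertical axis) by hours after injection (horizontal axis, not to scale), with the 95% confidence interval of limma's fit. The intervals of Per1 and Per2 lie above 0 at 1 h and below 0 at 18 h before adjustment for the number of genes, and all other intervals include 0.

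Taking the time comparisons over all 8 genes, 3 passed for 3 and 4 h minus 1 and 1.5 h, where 9.49% of all genes passed. Per1 and Per3 were higher, against 6.73% of all genes, and Clock was lower, against 2.77%. For 24 h minus 1 and 1.5 h, Clock and Per1 passed, both lower, against 10.9% of all genes in either direction and 4.22% lower. For 18 h minus 1 and 1.5 h, 0 of 8 passed, against 6.04% of all genes, and 2 did at an unadjusted p under 0.05, against 22.4%. For 24 h minus 18 h, 0 of 8 genes and 0% of all genes passed. Within serum mice, 0 of 8 passed the test of any difference between times, against 10.5% of all genes, with adjusted p-values of 0.0725 for Per2, 0.0744 for Per1 and up to 0.679 for Npas2. In that test 6 of 8 had an unadjusted p under 0.05, against 34.6% of all genes.

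Slide moved with time, and these calls rest on comparisons across slides. With slide as a fixed block the difference of 3 and 4 h from 1 and 1.5 h was 0.64 ± 0.49 for Per3 (adjusted p = 0.946). It was 0.18 ± 0.41 for Per1 (adjusted p = 0.975) and -0.42 ± 0.22 for Clock (adjusted p = 0.901). At 24 h the blocked difference was -0.83 ± 0.39 for Per1 and 0.17 ± 0.21 for Clock, which turned its direction, both with an adjusted p of 1. The blocked fit passed 3 of all genes for 3 and 4 h and 28 for 24 h. A call lost there therefore cannot tell a slide difference from a time difference. Within slide 3, oleic acid mice of 3 h were above those of 1.5 h by 0.61 for Per1 and 0.05 for Per3, and below them by 0.33 for Clock (-0.33), with 2 mice a group and no test. Leaving out the second serum mouse of 4 h also ended the 3 calls, with adjusted p-values of 0.0571 for Per3, 0.0544 for Per1 and 0.0595 for Clock. Leaving out the first serum mouse of 24 h ended both calls at 24 h, with adjusted p-values of 0.133 for Clock and 0.0737 for Per1. The Per1 call at 24 h was also lost without the second serum mouse (0.14) or the first oleic acid mouse (0.0676) or the third (0.0695) of 24 h.

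The serum mice of 18 h and 4 h lay on 1 slide, so slide did not move with time there. Of the 8 genes 0 passed, against 0.928% of all genes, and 4 had an unadjusted p under 0.05, against 10.7%. Per2 was 0.81 ± 0.28 higher at 18 h (interval 0.23 to 1.38, adjusted p = 0.215). Arntl was 0.58 ± 0.17 higher at 18 h (interval 0.23 to 0.94, adjusted p = 0.122). Per3 differed by -0.75 ± 0.30 (adjusted p = 0.331) and Per1 by -0.61 ± 0.26 (adjusted p = 0.384). Both serum mice of 18 h were above both of 4 h for Per2, Arntl, Clock and Cry1, the last with neither mouse of 4 h above background, where 15.6% of all genes were separated in that way. They were below both for Per1 and Per3, against 23.3% of all genes. Without the third oleic acid mouse of 1 h, Per2 passed (adjusted p = 0.0473). That mouse is not in this comparison, so the difference stayed at 0.81 and only the SE, which all groups share, fell to 0.20.

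**Figure D4:**
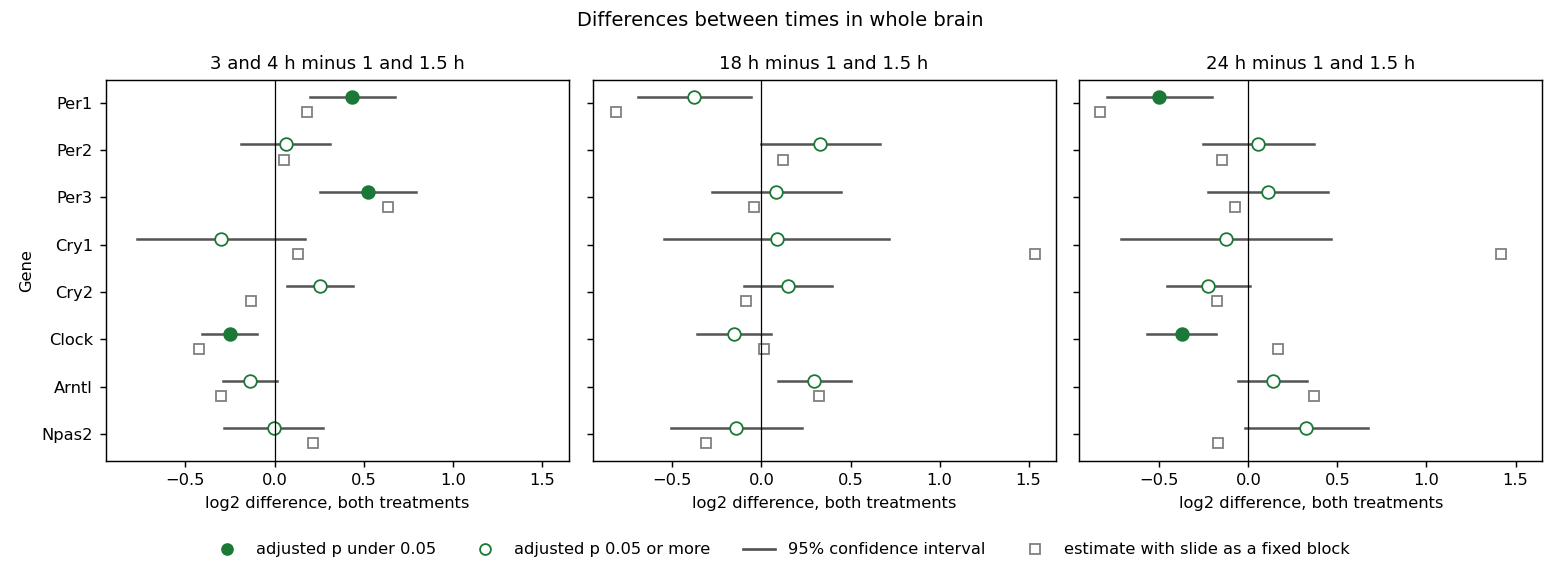
Differences between times for each of the 8 genes (rows) on a log2 scale (horizontal axis), with 95% confidence intervals of limma's fit, circles filled where the adjusted p was under 0.05 and squares for the estimate with slide as a fixed block. Per3, Per1 and Clock are filled for 3 and 4 h minus 1 and 1.5 h, and Clock and Per1 for 24 h minus 1 and 1.5 h, where the square of Clock lies on the other side of 0.

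Outside the core loop, 21 other clock genes were tested, all well above background on all arrays. For 3 and 4 h minus 1 and 1.5 h, 3 rose and 0 fell, against 6.73% and 2.77% of all genes, with a median log2 difference of 0.05 over the 21 and of 0.05 over all genes. Ciart, a repressor of CLOCK and ARNTL listed on the array as Gm129, rose by 1.03 ± 0.13 (adjusted p = 6.5e-05). Usp2, a deubiquitinase, rose by 0.30 ± 0.07 (adjusted p = 0.0066), and the D-box activator Dbp by 0.40 ± 0.11 (adjusted p = 0.0234). For 18 h minus 1 and 1.5 h, where 6.04% of all genes passed in either direction, Ciart (-1.06 ± 0.17), the Arntl activator Rora (-0.54 ± 0.14) and the D-box factor Hlf (-0.47 ± 0.14) fell. For 24 h minus 1 and 1.5 h, 5 fell, against 4.22% of all genes, and 0 rose, with Ciart at -1.26 ± 0.16, Rora at -0.56 ± 0.13, Nr1d2, which encodes a REV-ERB repressor, at -0.48 ± 0.13, Usp2 at -0.45 ± 0.08 and Btrc, which encodes a subunit of the ligase that marks PER proteins for breakdown, at -0.26 ± 0.08. In serum mice of 18 h against 4 h, on 1 slide, Ciart was lower by 2.15 (-2.15 ± 0.29, adjusted p = 0.000868) and Usp2 by 0.82 (-0.82 ± 0.15, adjusted p = 0.00854), the other 19 did not pass, and 0.928% of all genes did. Of the 21, 0 passed between oleic acid and serum mice at any time.

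These calls differed in how far they rested on single mice. Those of Ciart, in all 4 comparisons, and of Usp2 at 3 and 4 h and at 24 h passed in all 31 fits that left out 1 mouse. With slide as a fixed block, all 11 calls that run across slides were lost. That fit passed 3 of all genes for 3 and 4 h, 18 for 18 h and 28 for 24 h. Ciart was then 0.95 for 3 and 4 h, -1.12 for 18 h and -1.33 for 24 h, with adjusted p-values of 0.894, 0.808 and 0.9, and Usp2 at 3 and 4 h turned to -0.06. On the 1 slide that held serum 18 h and 4 h, Ciart (adjusted p = 0.0026) and Usp2 (adjusted p = 0.00949) passed with the block. Dbp was lost without the second serum mouse of 3 h (adjusted p = 0.067) or of 4 h (adjusted p = 0.0744). Rora at 18 h was lost without the first serum mouse (0.178) or either oleic acid mouse of 18 h (0.09 and 0.135), and at 24 h without the first serum mouse of 24 h (0.071). Usp2 between serum 18 h and 4 h was lost without the first serum mouse of 18 h (0.151) or the second of 4 h (0.0559). Nr1d2 was lost in 4 of the 31 fits, Hlf in 14 and Btrc in 24, with adjusted p-values up to 0.0979, 0.249 and 0.149.

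Ciart shows this course mouse by mouse. Oleic acid mice had levels of -1.40, -1.39 and -1.01 at 1 h, -2.36, -1.98 and -2.04 at 1.5 h, -0.82, -0.19 and -0.74 at 3 h, -1.33, -1.22 and -1.12 at 4 h, -2.99 and -2.65 at 18 h, and -3.43, -3.12 and -2.32 at 24 h. Serum mice had levels of -2.53, -2.51 and -1.76 at 1 h, -1.98, -1.92 and -2.06 at 1.5 h, -0.72 and -0.79 at 3 h, -1.16 and -0.80 at 4 h, -3.30 and -2.97 at 18 h, and -3.26 and -3.53 at 24 h. Every mouse of 3 and 4 h was above every mouse of 18 and 24 h, and the share of all genes separated in this way was not counted. At 1 h the oleic acid mice were all above the serum mice, as for Per1 and Per2 and for 4.11% of all genes.

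**Figure D5:**
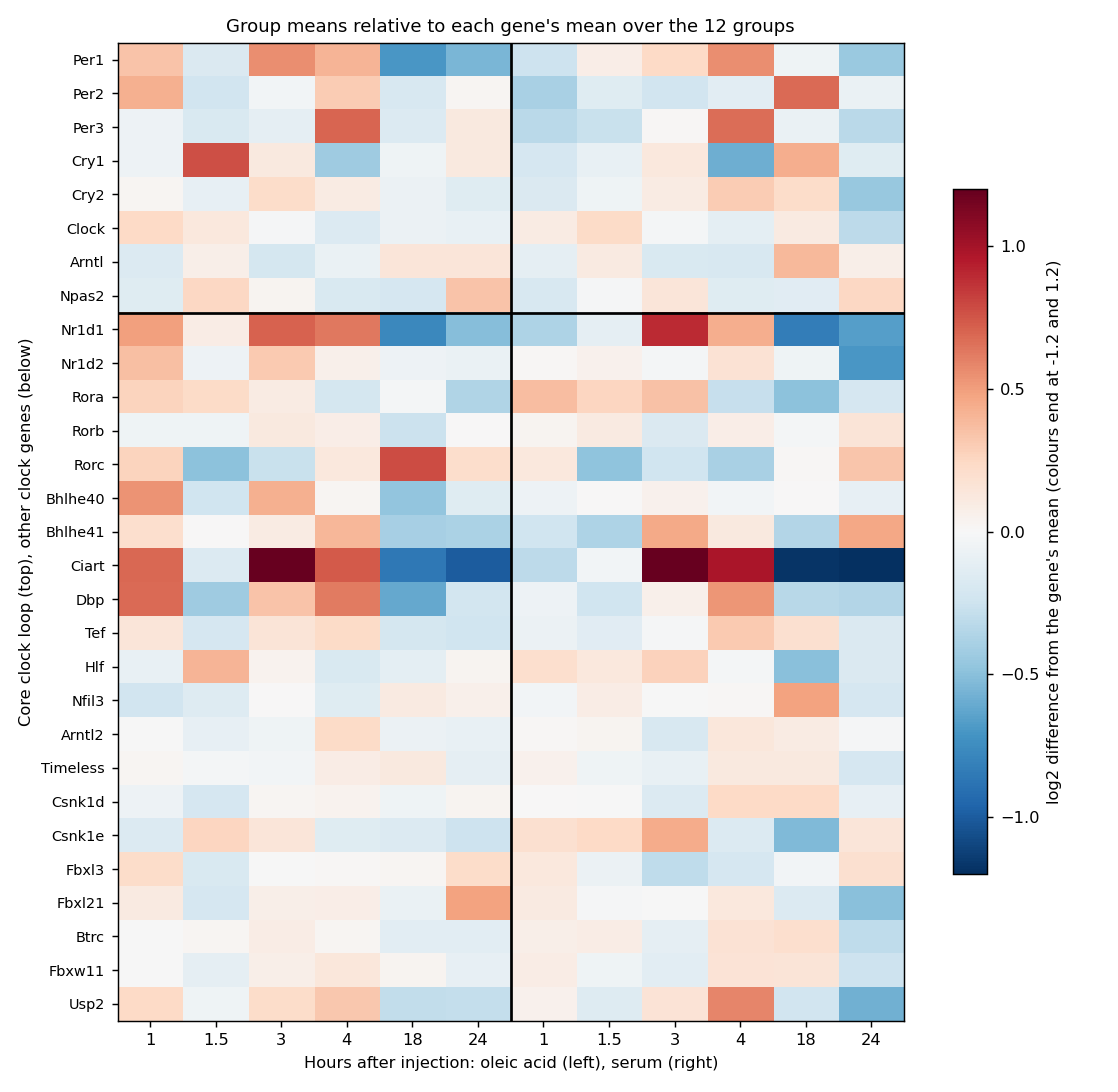
Group means of the 8 core loop genes and the other clock genes (rows), each relative to the gene's own mean over the groups (log2, colour), for oleic acid and serum groups by hours after injection (columns). Ciart has the widest range of the genes drawn, with its high values at 3 and 4 h and its low values at 18 and 24 h.

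Other gene groups were measured alongside. The 10 immediate early genes, which neurons switch on within minutes of activity, had all 10 members higher in oleic acid mice at 1 h (median 0.38) and all 10 lower at 18 h (median -0.78), with 0 passing at either time. Egr1 was -0.90 and Npas4 -0.93 at 18 h. Over all genes the median was 0.00 at 1 h and -0.04 at 18 h. The oleic acid and serum mice of 18 h lay on different slides, where slide and treatment cannot be told apart. The 10 glucocorticoid targets were all higher at 3 and 4 h than at 1 and 1.5 h, and 6 passed (median 0.46), where 9.49% of all genes passed in either direction, among them Fkbp5 at 0.70 (adjusted p = 0.00246) and Sgk1 at 0.70 (adjusted p = 0.0169). All 10 were lower in serum mice at 18 h than at 4 h (median -1.03), and 4 passed, against 0.928% of all genes. With slide as a fixed block, 0 of the 10 passed for 3 and 4 h and 3 passed for serum 18 h minus 4 h. Over all genes 3 and 263 passed those blocked comparisons. Their part in the levels of Per1, Per2 and Per3 was not tested.

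The region of brain on the arrays also varied. The mean level of 7 cerebellum markers lay between 2.48 and 2.68 in oleic acid mice at 18 h, against -0.78 and 2.36 in serum mice at 18 h, and over all arrays between -2.09 and 2.75. All 7 were higher in oleic acid mice at 18 h (median 1.65) and 0 passed. Over the 31 arrays, the Pearson correlation of that mean with the 8 genes was between -0.28 (Cry2) and 0.20 (Per2), where arrays share slide and time. Of the suprachiasmatic and hypothalamic markers, 7 of 8 were tested, and all 7 were higher in oleic acid mice at 1 h (median 0.42, 0 passing) and lower at 3 and 4 h than at 1 and 1.5 h (median -0.16, 0 passing). The 5 tested pituitary markers were higher at 24 h than at 1 and 1.5 h (median 3.33). Of these 4 passed, against 10.9% of all genes in either direction. Of the 6 pituitary markers listed, 1 was well above background on all arrays. The other tested ones entered only through groups where every array was above background, so nothing is read from the share passing. With slide as a fixed block, 28 of all genes passed that comparison. Neuron markers had medians of 0.03 at 1 h and -0.04 at 18 h between oleic acid and serum mice, with 0 passing. The part of tissue makeup in the clock gene differences was not tested.

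As a description of the spread, time held 59.8% of the variance of Per1 over the 31 arrays, 57.6% of that of Per3, 56.3% of Arntl, 47.6% of Clock and 39.5% of Cry2, against a median of 33.7% over all genes. It held less than that median for Npas2 (32.8%), Cry1 (23.4%) and Per2 (14.6%). Treatment held 3.75% for Per2, 3.31% for Per3 and at most 2.35% for the other 6, against a median of 1.25%. Slide, which overlaps with time, held 63.6% for Cry2, 50.6% for Per1, 42.0% for Clock and 40.8% for Per3, and 29.4% for Cry1, 25.2% for Per2, 25.0% for Npas2 and 12.9% for Arntl, against a median of 37.1%. The within-group SD was 0.17 for Clock and Arntl, 0.21 for Cry2, 0.27 for Per1, 0.29 for Per2, 0.31 for Per3, 0.32 for Npas2 and 0.55 for Cry1. Among the members, Per1 and Per2 correlated at 0.41 over the 31 arrays and at 0.70 after removing group means. Per1 correlated at 0.57 with Cry2 and -0.40 with Arntl.

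The genes whose levels most resembled each member were found by Pearson correlation over the 31 arrays, among 14722 named genes. For Per1 they were Csrnp1 (0.87), Nfkbia (0.85) and Maff (0.84). For Per2 they were Upf2 (0.83), Nab2 (0.79) and Prkd2 (0.77), and for Clock Scoc (0.85), Fndc3a (0.81) and Sh3bgrl (0.79). For Arntl they were Vps37a and Synj2 (both 0.83) and Fam13b (0.82), and for Per3 Wbp7 and Parn (both 0.82) and Npepl1 (0.81). Cry2 was closest to Chd5, Gramd1a and Tcfe3 (all 0.90), Npas2 to Samd10 (0.76) and Cry1 to Scai (0.72). These arrays share group, slide and scaling, so the values describe likeness over these mice.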

How the data were processed

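Whole-brain RNA of 31 mice was measured with 1 single-colour Agilent array each. Per the file headers, the authors used Agilent's Feature Extraction (10.5.1.1), and the deposited intensity values were background-subtracted but not normalized between arrays. The flags for spots well above background are other values of 0 or 1 in the deposited files. The authors' deposited value table holds quantile-normalized log2 values and served as an alternative. Processed intensities were log2-transformed and the log2 of each array's 75th percentile over 59305 non-control spots was subtracted. Of 55681 probes, 35499 were kept: those with no missing array that were above background throughout 1 or more of the 12 groups. The probe with the highest mean stood for each of 25204 genes. Group means were fitted with limma (3.58.1; R 4.3.3), leaving 19 residual degrees of freedom, and p-values were adjusted over all genes at 0.05. The scripts were tested on simulated data. All 8 members were named in each comparison, other clock genes where they passed or had the smallest adjusted p, and the most alike genes by correlation. The members and lists were chosen with earlier results of these data known. Fitting each probe on its own, the contrast of the effects at 18 h and 1 h, and leaving out mice for calls within 1 treatment or of other clock genes were added after the data were seen. Coordinates are mm9 for probes and GRCm38.p6 for promoters, each as its source gives them. No promoter window was found for Per2. The number of arrays and signal over background limit the precision.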

Additional observations from a re-analysis of the deposited data

Results flagged for a closer look

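The oleic acid minus serum difference of Per1 and Per2 had opposite directions at different times, with the groups apart each time. For Per1 it was 0.59 at 1 h and 0.32 at 3 h, and -0.64 at 18 h. For Per2 it was 0.81 at 1 h and 0.43 at 4 h, and -0.87 at 18 h. Of all genes, 4.11% were apart upwards at 1 h, 10.1% at 3 h and 9.47% at 4 h, and 29.5% were apart downwards at 18 h. The treatments of 18 h lay on different slides. Without the third oleic acid mouse of 1 h, the 1 h difference was 0.35 for Per1 and 0.44 for Per2. The difference between 18 h and 1 h was tested and had an adjusted p of 0.603 for both genes.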

How the results depend on the processing

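In each treatment comparison 0 of the 8 genes passed under every setting run. For 3 and 4 h minus 1 and 1.5 h, where 3 passed, 0 passed with scaling to the median, with slide as a fixed block or as a random block, and 1 (Per3) in the deposited value table. Over the 13 alternative settings, Per3 passed in 10, Per1 in 9 and Clock in 6. Leaving out single mice gave 0 to 3. For 18 h minus 1 and 1.5 h, 1 passed with normexp (Arntl) and 2 in the value table (Arntl and Per1), and 0 to 1 without single mice. For 24 h minus 1 and 1.5 h, where 2 passed, 0 passed with either slide block, 1 with the arrays of the comparison alone, and 0 to 2 without single mice. Over the 13 alternative settings, Clock passed there in 11, Per1 in 10 and Cry2 in 1. The difference of Clock there turned to 0.17 with the fixed slide block. For serum 18 h minus 4 h, leaving out single mice gave 0 to 1. For time in oleic acid mice, where 1 passed, 2 passed with the mean of a gene's probes, 0 with either slide block, and 1 to 2 without single mice. For time in serum mice, 1 passed in the value table, and 0 to 3 without single mice. Replicate numbers did not pair mice: the deviations of 14 same-number pairs correlated from -0.62 to 0.39, 3 of them over 0.1. With the replicate block, 1 gene (Per2) passed for time in serum mice, 3 for 3 and 4 h, 2 for 24 h and 1 for time in oleic acid mice, with 0 in the other comparisons. Over all genes, the 2393 passing for 3 and 4 h ranged from 1408 to 3818 without single mice and from 3 to 2824 under the other settings. The 2736 passing for 24 h ranged from 504 to 4836 and from 17 to 3295. The causes were not tested. Requiring 24 arrays above background left Cry1 out.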
